A study of Mus musculus with 1152 samples.

Results

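The cells described here are long-term hematopoietic stem cells (LT-HSCs) of 4-month-old mice, divided by whether the RNA of Fos was detected in them. Of 384 wells from young mice, those with at least 2500 genes were kept, and 64 cells (38.8% of them) had at least 1 Fos count (Fos-detected) whereas the others had none (Fos-negative). The Fos-negative cells numbered 14, 47, 2 and 38 in the 4 young library pools described below, and the Fos-detected cells 7, 35, 2 and 20. The whole series holds 1152 wells in 12 library pools of 96 wells, of which 688 had at least 2500 genes. The Fos count alone divided the cells, so it was left out of each comparison and its own values are given as a description.

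LT-HSCs were sorted from whole bone marrow as CD45+, EPCR+, CD150+ and CD48- cells, and the polyadenylated RNA of each single cell was converted to cDNA, amplified and sequenced (Smart-seq2). The young cells came from wild-type (WT) mice and from mice homozygous for JAK2V617F, a mutation that keeps the JAK2 kinase active, in 2 library pools per genotype, here called A and B in the order of their pool number. The labels name no treatment. Cells of 18-month-old and 12-month-old mice of the same genotypes, again in 2 pools each, are used for comparison. The labels tie cells to a pool but not to an animal, the design names 2 animals per group, and the pool is therefore the unit of every test: p-values measure the spread between pools, which may be technical.

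The young cells passing the filter numbered 21 in WT pool A, 82 in WT pool B, 4 in JAK2V617F pool A and 58 in JAK2V617F pool B. JAK2V617F pool A thus rests on 2 Fos-detected and 2 Fos-negative cells, and the medians of the early and old-specific lists are given below with and without it. Median counts on genes per cell ranged from 169992 to 589524 over the Fos-negative and Fos-detected cells of the 4 pools, and synthetic spike-ins took a median of 0.59% to 1.10% of the counts in the A pools and 7.01% to 7.42% in the B pools. Cd48, the gene of the marker excluded by the sort, had no count in any of these cells. The 20 HSC markers were all present, with a median summed level of 7329 counts per 1000000 counts on genes (CPM) in Fos-negative cells and 6426 in Fos-detected cells. Mpo, Ctsg and Csf1r (granulocytes and monocytes), Klf1 and Car1 (erythroid) and Cd3e, Cd3d and Il7r (lymphoid) were at 0 in both groups. The part of other cell types was not tested. The summed levels of the 10 granulocyte and monocyte markers had medians of 988 CPM in Fos-negative and 779 in Fos-detected cells (highest cells 4723 and 4688), and those of the 10 erythroid markers 1195 and 1244 (highest 7053 and 6198). The 8 megakaryocyte and platelet markers had medians of 339 and 374 CPM (highest 5624 and 2766), and the 10 lymphoid markers medians of 0 in both groups (highest 1489 and 1086).

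Fos encodes a subunit of AP-1, a transcription factor made of a FOS family and a JUN family protein. Together with Egr1, the Nr4a nuclear receptors, the Klf factors and others it belongs to the immediate early genes, whose transcription starts within minutes of a growth, cytokine or stress signal without new protein synthesis. The same signals turn on inhibitors that end the response, among them Dusp1, a phosphatase of MAP kinases, and Zfp36, which marks short-lived mRNAs for decay. In bone marrow the quiescence of HSCs is known to be maintained in part by such factors, and isolation of cells from tissue is itself known to induce immediate early genes. The study described an old-specific cluster of 18-month LT-HSCs by a list of genes rich in them. That list was chosen on WT cells of these libraries, so it is a description of the activated state and not independent evidence of its direction.

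To show the regulatory sequence at which such signals converge, the 250 bases before the start site are given for Fos and for 3 early genes described below (RefSeq, build GRCm38.p6, 5′ to 3′ on the strand of the gene). Capitals mark TGACG on either strand, the core of the cAMP response element (CRE) bound by CREB and ATF proteins; neighbouring cores on opposite strands can overlap in the full element TGACGTCA.
Fos, chr12:85473640-85473889 (+ strand): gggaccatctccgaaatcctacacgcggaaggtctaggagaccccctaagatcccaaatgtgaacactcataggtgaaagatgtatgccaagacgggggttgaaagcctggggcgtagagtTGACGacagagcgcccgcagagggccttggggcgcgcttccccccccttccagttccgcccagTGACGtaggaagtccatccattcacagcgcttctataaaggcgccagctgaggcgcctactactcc
Nr4a1, chr15:101266596-101266845 (+ strand): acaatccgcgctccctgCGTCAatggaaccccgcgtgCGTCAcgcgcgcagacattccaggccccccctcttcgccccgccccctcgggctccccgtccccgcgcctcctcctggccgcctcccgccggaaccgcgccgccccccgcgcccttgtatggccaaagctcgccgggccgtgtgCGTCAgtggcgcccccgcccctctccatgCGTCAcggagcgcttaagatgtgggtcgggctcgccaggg
Nr4a2, chr2:57124004-57124253 (- strand): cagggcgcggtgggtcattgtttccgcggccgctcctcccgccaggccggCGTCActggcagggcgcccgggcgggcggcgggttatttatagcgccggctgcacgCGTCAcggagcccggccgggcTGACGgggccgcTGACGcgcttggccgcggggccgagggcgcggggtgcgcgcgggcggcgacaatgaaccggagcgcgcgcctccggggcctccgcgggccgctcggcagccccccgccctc
Dusp1, chr17:26508473-26508722 (- strand): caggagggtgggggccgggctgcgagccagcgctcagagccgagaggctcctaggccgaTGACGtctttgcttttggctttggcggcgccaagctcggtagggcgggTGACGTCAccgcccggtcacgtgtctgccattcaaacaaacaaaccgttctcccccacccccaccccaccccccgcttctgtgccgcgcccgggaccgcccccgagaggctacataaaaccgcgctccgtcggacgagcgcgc
The core stood at 2 places before Fos, at 4 each before Nr4a1 and Nr4a2, and at 3 before Dusp1, of which a pair overlapped in a full TGACGTCA. The windows shown are not typical of the genes described below. Those of Fosl2, Jun and Zfp36 held 0 cores, that of Klf4 held 1, and those of Btg2 and H3f3b held 2 each. Of all 32851 such windows, 17.8% held at least 1 core, 0.69% at least 3 and 0.14% at least 4, and 1.55% held TGACGTCA. Of the 67 genes on 4 lists of early response genes, 46 had a window, and 21 of these (45.7%) held a core. The CArG box, bound by serum response factor, was in 1.47% of all windows and in those of Dusp5, Srf and Zfp36 among the early genes. These matches are letters in a window, with no account of base composition. Sequence outside the 250 bases was not searched, so a window without a match does not mean that the gene lacks the element. The young and 18-month comparisons below give the RNA of the same genes.

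Fos counts per cell formed a wide range rather than a step. In the 64 young cells with Fos, the count ran from 1 to 2735 with a median of 35, or 202 CPM. Just inside the rule lay 17 cells with exactly 1 count, 26 cells had 1 to 9 counts, and 38 had 10 or more. By pool, Fos was detected in 33.3% of cells in WT pool A (7 of 21, 95% Wilson interval 17.2% to 54.6%), 42.7% in WT pool B (35 of 82, 32.5% to 53.5%), 50% in JAK2V617F pool A (2 of 4, 15% to 85%) and 34.5% in JAK2V617F pool B (20 of 58, 23.6% to 47.3%). These intervals cover counting error only.

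The mean share over pools was 42.2% in JAK2V617F and 38.01% in WT, a difference of 4.23 percentage points, given as a description since Fos set the groups. JAK2V617F pool B alone, without the pool of 4 cells, lay below the WT mean at 34.5%. The sign turned with a count of 10 or more (-1.55 points), after thinning each cell to 30000 counts (-2.88 points) and with a cell filter of 1300 genes (-2.68 points). At 10 or more counts the pools lay close together, at 28.6%, 21.95%, 25% and 22.4% in the order given above.

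**Figure D1:**
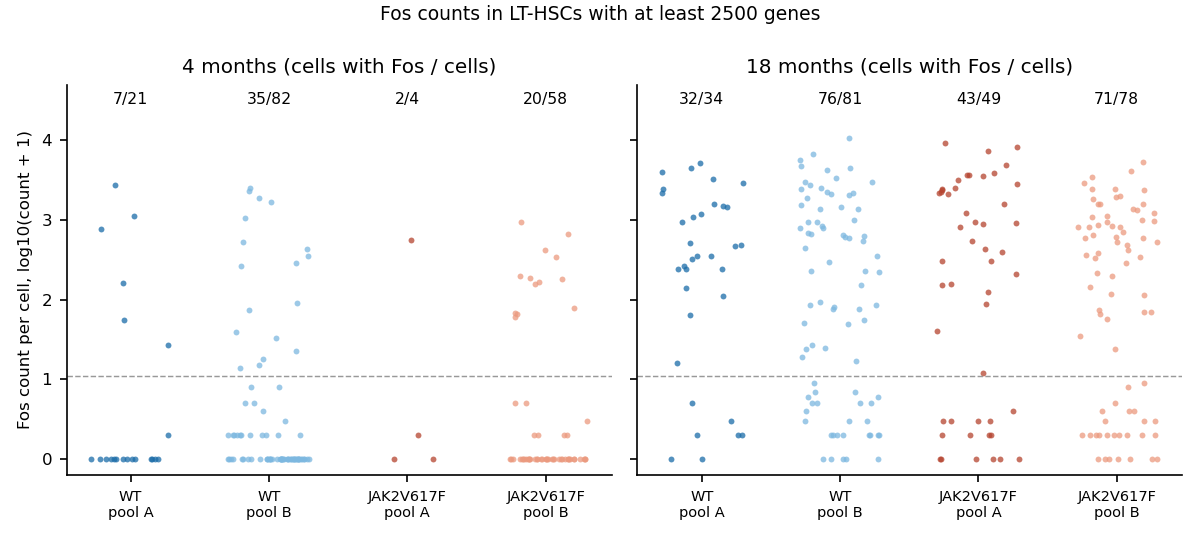
Fos counts in single LT-HSCs of 4 months (left) and 18 months (right) by library pool, on a log10(count + 1) axis; each point is a cell with at least 2500 genes, the dashed line marks 10 counts, and the numbers over each column give cells with Fos of all cells. Young cells were spread from 0 to 2735 counts, and 18-month cells reached 10793.

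Among 18-month cells, 222 of 242 had Fos (91.7%), and 27, 55, 34 and 52 cells of WT pools A and B and JAK2V617F pools A and B had 10 or more counts. The median level of the cells with Fos was 1154 CPM at 18 months against 202 CPM at 4 months. In the 12-month libraries Fos was at 0 in all 281 passing cells and in all 384 wells, which allows a share of cells or wells with a Fos count of up to 1.07% and 0.78% (3 counts of the total, counting error only), and these were left out of the comparison. Young wells outside the filter held Fos too, 44 wells with at least 1300 but under 2500 genes and 6 of 43 wells with fewer, of which 2 had 10 or more counts.

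The number of genes seen was compared next. Their mean number of detected genes exceeded that of Fos-negative cells by 328 in WT pool A, 126.4 in WT pool B, 448.5 in JAK2V617F pool A and 110.6 in JAK2V617F pool B (mean 253 ± 163.4, SD, n = 4 pools; exact sign-flip permutation test, two-sided, p = 0.125, the smallest that 4 pools allow). At 30000 counts per cell the mean difference was 142.1. The part of depth in the detection of Fos was not tested. Shares of cells below are given at 30000 counts per cell, a depth that each of these cells reached.

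To compare the transcriptomes, counts of cells of the same pool and Fos status were added up and tested with the pool as a block (edgeR quasi-likelihood test, adjusted p under 0.05). Of 9389 genes tested, 0 passed (0.0%), and 49 had an unadjusted p under 0.05 (0.522%), 20 of them higher in Fos-detected cells (0.213%). Where nothing differs, a share of about 0.05 of the genes would reach such a p, so the test was conservative on these sums. Its 0 calls do not show that the groups were alike. Without JAK2V617F pool A, 1.71% of the genes tested had such a p, 0.751% higher and 0.964% lower. DESeq2 with the same design called 35 genes (0.373%), 13 higher (0.138%) and 22 lower. The filter on low counts asked for as many sums above its cutoff as each Fos status holds. A gene below the cutoff in a sum of 1 status was tested only with help from sums of the other. Where it is high in the other, its call is a description and no support. No difference named below passed the main test, and the adjusted p-values of the named genes in it were all 0.999. The sums weight deep cells, and the pool values that follow show what each pool held. How many of all genes tested were higher in each pool, or did not overlap between groups, was not counted. Such patterns in the named genes are therefore descriptions.

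The AP-1 factors, the partners and relatives of Fos, had 6 of 9 members tested, and all 6 had a fold change above 0, with a median of 1.69 on the log2 scale (all genes tested: median -0.09, 47.8% above 0). Batf and Maff were close to 0, at 0.23 and 0.07, and changed sign under several alternatives. Fosl2, a FOS family subunit, stood at 1.68, 96.8, 0 and 3.44 CPM in the Fos-negative cells of WT pools A and B and JAK2V617F pools A and B, and at 283, 172.6, 9.33 and 242 CPM in the Fos-detected cells. It was higher in Fos-detected cells of each pool, although WT pool B was already high without Fos (log2 fold change 5.78 ± 1.99, SE, unadjusted p = 0.0196). Jun, the JUN family partner, had 185.2, 93.2, 0 and 38.6 CPM without Fos and 646, 153.2, 1.70 and 108.1 CPM with it, higher within each pool but with overlapping groups (1.86 ± 1.17). Junb had 120.7, 103.5, 0 and 80.97 CPM without and 491, 196, 59.4 and 177.1 CPM with Fos (2.40 ± 1.58). Jund overlaps an antisense gene, and its reads could not be fully told apart (1.51 ± 1.52).

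Fosb, the closest relative of Fos, did not pass the filter on low counts. In Fos-negative cells it was at 0 in 3 pools and at 0.66 CPM in JAK2V617F pool B, and in Fos-detected cells it was at 62.6, 54.9, 0 and 7.56 CPM. At 30000 counts it was seen in 7.89% of young cells with 10 or more Fos counts, against 67.3% of such 18-month cells. Atf3, a stress-induced AP-1 partner, was at 0 in all young cells kept.

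Nr4a1 is an orphan nuclear receptor induced by many mitogens. Its level was 0.96, 75.2, 0 and 181.1 CPM in Fos-negative cells and 447, 685, 2477 and 562 CPM in Fos-detected cells, so that the groups did not overlap (6.196 ± 2.46, unadjusted p = 0.0356; DESeq2 adjusted p = 0.0159). Over 16 alternative settings its log2 fold change ran from 2.32 to 8.79. The share of cells with Nr4a1 was 0% against 57.1% in WT pool A, 21.3% against 40% in WT pool B and 34.2% against 55% in JAK2V617F pool B. In JAK2V617F pool A it was in neither Fos-negative cell and in both Fos-detected cells.

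Other early transcription factors (17 of 21 tested, 12 above 0, median 1.73) were less even. Nr4a2, a close relative of Nr4a1, had 11.02, 91.6, 0 and 231.5 CPM without Fos and 284, 112.5, 80.6 and 169.3 CPM with it, so that JAK2V617F pool B went the other way (2.89 ± 2.26). Egr1, a zinc finger factor and standard early gene, was at 488, 221.5, 0 and 465 CPM in Fos-negative cells and at 561, 498, 39.03 and 674 CPM in Fos-detected cells, with overlapping groups (1.67 ± 1.43). Klf4 was low without Fos, at 0, 10.98, 0 and 1.80 CPM, and was at 97.4, 58.4, 34.8 and 3.69 CPM with it (5.12 ± 2.80).

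Klf2, a factor linked to quiescence, differed in direction between pools, a difference that did not pass the test of interaction below. It had 3.11 and 53.7 CPM in Fos-negative and 70.97 and 237 CPM in Fos-detected cells of the WT pools, but 0 in both groups of JAK2V617F pool A and 281 against 64.9 CPM in JAK2V617F pool B. With the JAK2V617F pools alone its log2 fold change was -1.94. Csrnp1, Per1, Klf6, Myc, Cebpd and Cebpb lay between 1.26 and 4.19, Id2 was at 0.22, and Srf, Klf10 and Id1 lay between -1.06 and -0.57. Of these, Per1, Myc and Csrnp1 kept their sign in each alternative, and the others changed it in at least 1.

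Hes1 and Bhlhe40, transcriptional repressors on the list of the old-specific cluster, were not higher. Hes1 stood at 24.2, 5.87, 0 and 4.10 CPM in Fos-negative cells and at 0, 42.9, 0 and 1.29 CPM in Fos-detected cells (-1.65 ± 3.24). Bhlhe40 had 2.88, 11.9, 0 and 24.6 CPM without Fos and 0, 22.2, 0 and 1.48 CPM with it (-2.91 ± 2.51). For both genes only WT pool B was higher with Fos.

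**Figure D2:**
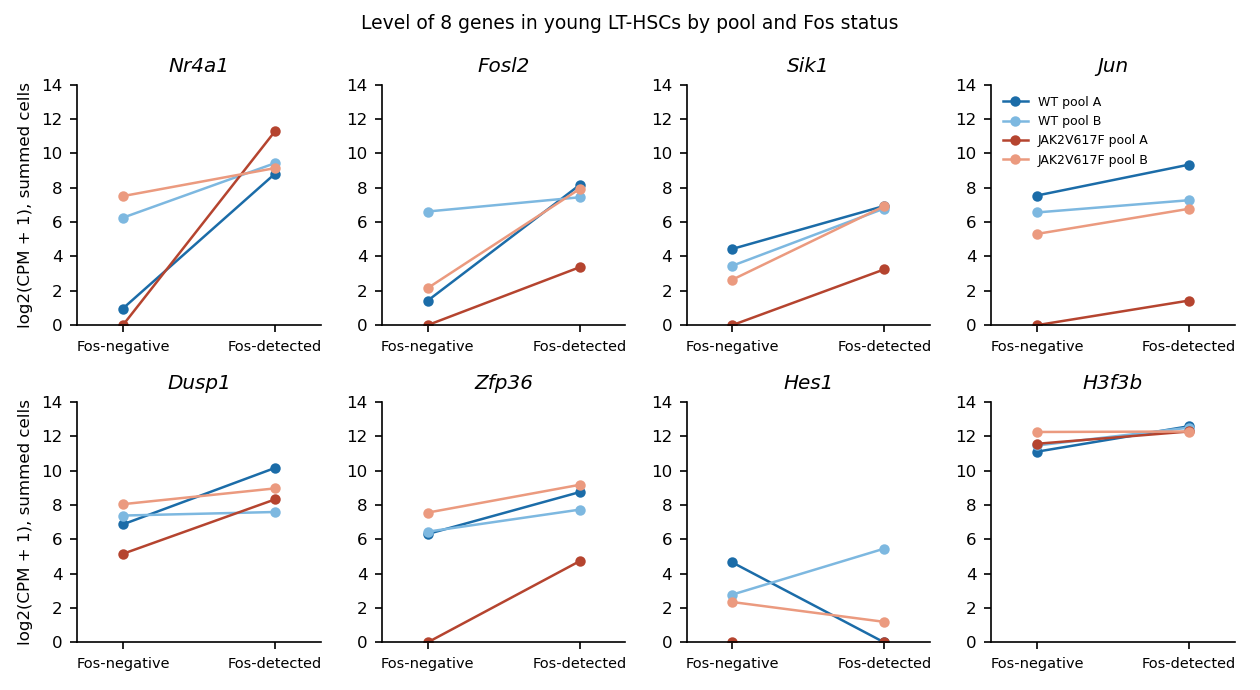
Levels of 8 genes in young LT-HSCs, as log2(CPM + 1) of the added counts of cells without (left) and with (right) Fos; each line is 1 of the 4 pools. Nr4a1, Fosl2 and Sik1 were higher with Fos in each pool, Hes1 only in WT pool B, and H3f3b was high in all pools.

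Of the feedback inhibitors, 16 of 20 were tested and 15 were above 0 (median 1.87). Sik1, a kinase that restrains CREB-dependent transcription, had 20.6, 9.96, 0 and 5.25 CPM in Fos-negative and 121.4, 109.4, 8.49 and 120.3 CPM in Fos-detected cells, higher in each pool (4.12 ± 1.54, unadjusted p = 0.0272). Dusp1 had 115.7, 165.6, 34.6 and 263 CPM without Fos and 1134, 191.2, 318 and 497 CPM with it (2.29 ± 1.14), and Zfp36 had 78.1, 85.9, 0 and 186.3 CPM against 427, 210, 25.5 and 574 CPM (2.74 ± 1.39). Both were higher within each pool, but their groups overlapped. Trib1, a pseudokinase adaptor, was called by DESeq2 (7.49 ± 1.96, adjusted p = 0.0346), on 9.38% of Fos-detected and 0.99% of Fos-negative cells. It had 0, 0, 0 and 22.5 CPM without Fos and 146.3, 11.9, 2.55 and 6.27 CPM with it, so that JAK2V617F pool B went the other way.

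Other early response genes (12 of 17 tested, 11 above 0, median 1.45) included Btg2, an antiproliferative gene. Its level was 184.4, 22.8, 0 and 21.55 CPM without Fos and 25.8, 178.4, 3572 and 110.1 CPM with it, so that WT pool A was lower with Fos and the value of JAK2V617F pool A came from 1 of its 2 cells (2.79 ± 2.38). Ier2 had 239, 174.2, 0 and 321 CPM against 354, 263, 16.97 and 356.5 CPM (1.42 ± 1.41). Gadd45b, a stress sensor, Pde4b, which degrades cAMP, and Mcl1, a survival factor, were the members with the smallest p, at 4.17 ± 2.23, 2.46 ± 1.54 and 2.11 ± 1.37. Without JAK2V617F pool A the medians of the 4 early lists were lower, at 1.40 for AP-1 factors (6 of 7 above 0), 0.73 for other transcription factors (13 of 18), 0.90 for feedback inhibitors (13 of 19) and 0.78 for other early response genes (12 of 14). All genes tested then had a median of -0.25, with 41.8% above 0.

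Among higher genes outside the early lists, H3f3b, which encodes the replication-independent histone H3.3, had the smallest unadjusted p. It was seen in every young cell kept and had 2186, 2809, 3008 and 4839 CPM without Fos and 6103, 5763, 4939 and 4933 CPM with it. The groups did not overlap, but JAK2V617F pool B differed by less than the others (1.24 ± 0.42, unadjusted p = 0.0176). Fosl2, Sik1, Ighmbp2, Pex11g, Caskin2, Pdgfd and Nus1 were also among the 10 genes of smallest p that were higher, and each of these 7 was in at most 25% of Fos-detected cells at 30000 counts. Among the 10 of smallest p that were lower were Gm20257, Upf3a, Ptdss2, Klhl22, Parp16, Bcl2l13, Rfwd3, Isoc2b and Alkbh4, with log2 fold changes from -8.73 to -5.95. Gm20257 (0.0049), Upf3a (0.0055), Ptdss2 (0.0093) and Klhl22 (0.0172) had smaller unadjusted p-values in edgeR than H3f3b. Upf3a, a factor of nonsense-mediated decay, was in 14.9% of Fos-negative and 3.13% of Fos-detected cells, and Gm20257 in 6.93% and in none of 64.

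Fold changes of summed counts weight deep cells, so the share of cells with a gene was compared as well. In the 3 pools with at least 5 cells of each status, 10.7% of all genes tested had a higher share in Fos-detected cells of each pool. These were 1004 of 9389 genes, and 910 had a lower share in each. Of the 51 tested genes on the 4 early lists, 20 did (39.2%), and 1 had a lower share in each. By list these were 4 of 6 AP-1 factors, 7 of 17 other early transcription factors, 5 of 16 feedback inhibitors and 4 of 12 other early response genes. Lists outside the early response also held such genes, 5 of 20 HSC markers, 3 of 10 JAK/STAT targets, 2 of 7 genes of G2 and mitosis, 2 of 10 p53 targets, 1 of 11 heat shock and ubiquitin genes and 1 of 12 S phase genes. Klf2 was in 7.14%, 8.51% and 7.89% of Fos-negative cells of WT pools A and B and JAK2V617F pool B and in 42.9%, 34.3% and 20% of Fos-detected cells. Jun was in 35.7%, 27.7% and 18.4% against 71.4%, 40% and 50%. Egr1 was in 35.7%, 44.7% and 34.2% against 71.4%, 51.4% and 55%. Fosl2 was in 7.14%, 10.6% and 7.89% against 42.9%, 22.9% and 25%.

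Several shares differed between cells with few and with many Fos counts. Zfp36 was in 31.7% of the cells without Fos, 26.9% of the 26 cells with 1 to 9 counts and 60.5% of the 38 cells with 10 or more. For Dusp1 these shares were 28.7%, 26.9% and 57.9%, for Btg2 9.90%, 11.5% and 31.6%, for Klf2 7.92%, 15.4% and 39.5%, and for Nr4a1 22.8%, 38.5% and 55.3%. Hes1 was in 9.90%, 0% and 10.5%. The cells are pooled over libraries here, and no test was made over cells.

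**Figure D3:**
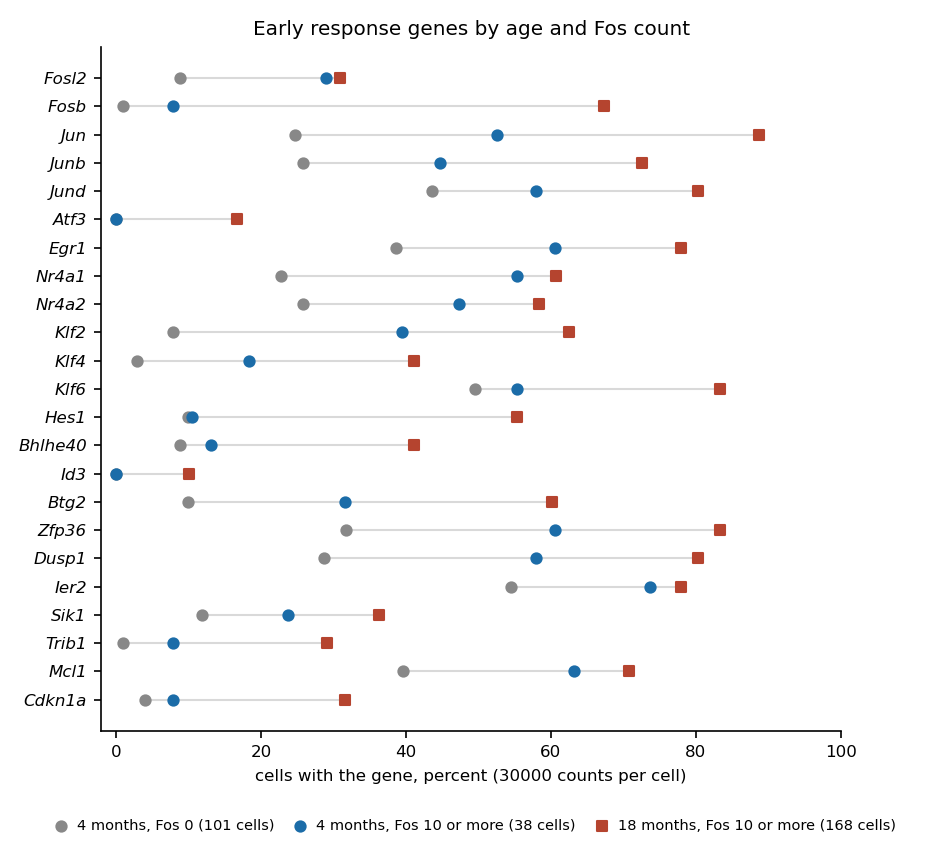
Share of cells with a count of each of 23 early response genes, in percent at 30000 counts per cell, for young cells without Fos (grey), young cells with 10 or more Fos counts (blue) and 18-month cells with 10 or more Fos counts (red squares). Young cells rich in Fos lay near the 18-month cells for Fosl2, Nr4a1 and Ier2 and near young Fos-negative cells for Hes1, Bhlhe40, Fosb and Atf3.

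The gene list of the old-specific cluster was examined next, to see how far young Fos-detected cells share the 18-month state. Of its 61 members, 59 were found by name and 53 were tested. In edgeR 0 were called higher, as among all genes tested (0.0%). A higher level at an unadjusted p under 0.05 was seen for 4 (Fosl2, Sik1, Nr4a1 and Dyrk3), against 0.213% of all genes. DESeq2 called 4 higher, Fosl2, Nr4a1, Dyrk3 and Trib1, against 0.138% of all genes. Each of these, and Sik1, was at 0 in a Fos-negative sum, so the low-count filter kept them only with help from Fos-detected sums. Their counts are therefore a description and no support. The fold change was above 0 in 43 of the 53 genes (81.1%), with a median of 1.67, against 47.8% of all genes and a median of -0.09. With the WT pools alone the median was 0.74 over 57 genes and with the JAK2V617F pools alone 2.68 over 48 genes, whereas the medians of all genes were -0.29 and 0.16. Without JAK2V617F pool A it was 0.81 over 56 genes, 42 of them above 0 (75%), against -0.25 for all genes, of which 41.8% were above 0. Then 11 were higher at an unadjusted p under 0.05, against 0.751% of all genes tested. Of the 53 genes, 21 (39.6%) had a higher share of cells in each of the 3 larger pools, against 10.7% of all genes. A lower share in each was seen for 2, against 910 of all 9389 genes.

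**Figure D4:**
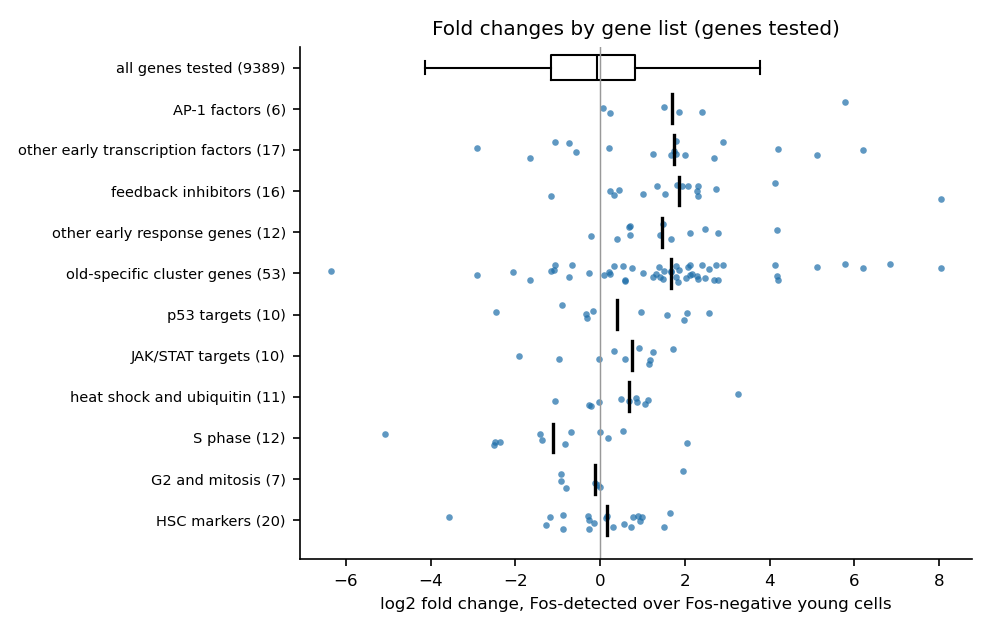
Log2 fold changes of Fos-detected over Fos-negative young cells for the genes tested in each list; points are genes, black bars list medians, and the box shows the quartiles and whiskers of all 9389 genes. The medians of the early and old-specific lists lay between 1.45 and 1.87, and that of all genes at -0.09.

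Per cell, the number of list genes seen at 30000 counts was higher with Fos in each pool. It averaged 10.7 ± 4.05 (SD over 14 cells) without and 19.4 ± 5.32 with Fos in WT pool A, 10.9 ± 4.75 and 13.6 ± 6.42 in WT pool B, 5.0 ± 1.41 and 17.5 ± 6.36 in JAK2V617F pool A, and 11.8 ± 4.56 and 16.8 ± 6.58 in JAK2V617F pool B. The mean difference over pools was 7.22 genes ± 4.31 (SD, n = 4), and 5.46 without JAK2V617F pool A. With cells matched on the number of genes detected it was 7.19. Matching left gaps between paired cells of up to 1091 genes in WT pool A and 905 in JAK2V617F pool A (2 pairs). In WT pool B and JAK2V617F pool B the largest gaps were 214 and 98 genes. Gene number was thus not made equal in the A pools. As a description of a chosen list it carries no p.

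The number was then set beside the Fos level and the age. The study chose the list to mark 18-month WT cells of these libraries against other cells, young ones among them. Differences in this number between the ages are therefore a description and no support. Young cells averaged 11.1 genes without Fos, 12.7 with 1 to 9 counts and 17.2 with 10 or more, whereas 18-month cells averaged 12.8, 13.3 and 26.8. Cells with 100 to 1000 CPM of Fos held 17.1 ± 6.51 list genes at 4 months (SD, 22 cells) and 17.5 ± 8.07 at 18 months (46 cells). By pool the young means in this range were 21.3, 16.5, 13 and 16.9, and the 18-month means 21.5, 14, 20.7 and 16.1. Above it, at 1000 to 10000 CPM, young cells held 18.1 ± 6.27 (14 cells, from 9 to 31) and 18-month cells 30.3 ± 10.4 (12, 34, 22 and 37 cells by pool, from 10 to 50). The young pools with such cells averaged 20.3, 16.7 and 18.6, each below the 18-month pools at 28.1, 31.1, 31 and 29.9. The median Fos level within this range was 2491 CPM in young and 4082 CPM in 18-month cells, and the part of that difference was not tested. Among Fos-detected cells of a pool, Spearman's rho between Fos CPM and list genes was 0.05, 0.51 and 0.19 in WT pools A and B and JAK2V617F pool B (7, 35 and 20 cells) and 0.63 to 0.77 in the 18-month pools (32 to 76 cells), each across cells of 1 library.

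**Figure D5:**
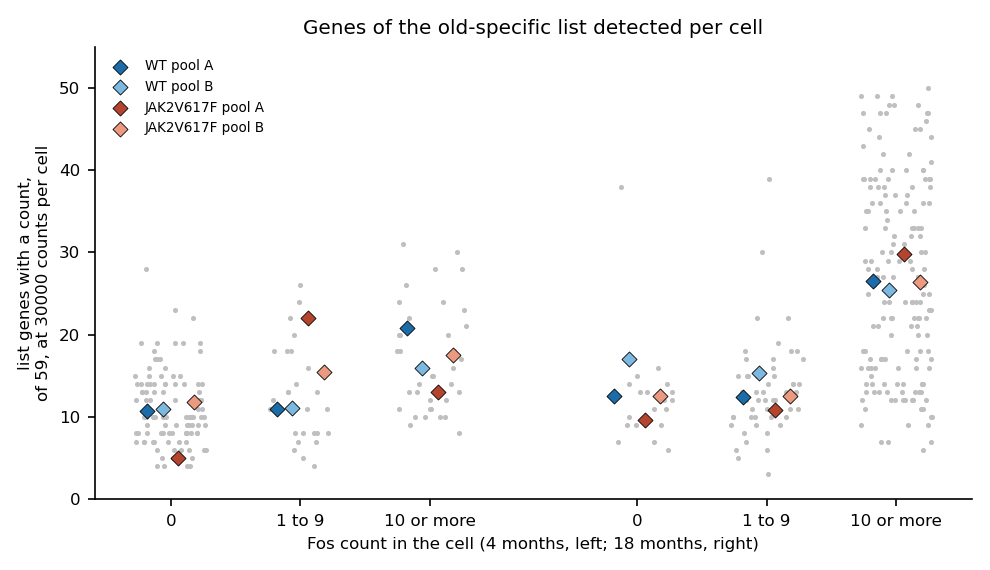
Genes of the old-specific list with a count, of 59, in single LT-HSCs at 30000 counts per cell, by Fos count at 4 months (left) and 18 months (right); grey points are cells and diamonds are pool means. Pool means of young cells with 10 or more Fos counts lay between 13 and 20.8, and those of 18-month cells between 25.5 and 29.8.

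Few young cells reached the 18-month level, a description too, since the list was chosen to mark 18-month WT cells. The median of 18-month cells with 10 or more Fos counts was 26.5 list genes. Of the 38 young cells past the same count, 4 lay at or above it, against 0 of 26 with 1 to 9 counts and 1 cell without Fos. The ages did not hold equal Fos, since the median level of all cells with Fos was 202 CPM at 4 months and 1154 CPM at 18 months. The part of that difference was not tested. In the counts before thinning, Hes1, Btg2 and Nr4a1 were detected together in 3 of the 38 young cells with 10 or more Fos counts, in 1 of the 26 and in 2 without Fos, but in 100 such 18-month cells (59.5%).

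Outside the early response, targets of p53, a factor of the DNA damage response, had 5 of 10 tested genes above 0 and a median of 0.40, and a young cell held 1.76 of 18 without and 1.72 with Fos. Cdkn1a, the p53 target that inhibits cyclin-dependent kinases, had 0, 22.6, 0 and 6.06 CPM without Fos and 29.3, 12.1, 0 and 28.03 CPM with it (2.56 ± 2.88). JAK/STAT targets had 7 of 10 genes above 0 (median 0.75) and heat shock and ubiquitin genes 7 of 11 (median 0.68), medians that were 0.24 and 0.34 without JAK2V617F pool A, where that of p53 targets was 0.03. Of the S phase genes, 4 of 12 were above 0 (median -1.11), but with matched cells the median was 0.13. Genes of G2 and mitosis had 1 of 7 above 0 (median -0.13), but 6 of 9 without JAK2V617F pool A (median 0.98). HSC markers had 11 of 20 above 0 (median 0.15), and 9 of 20 without that pool (median -0.07), and a cell held 10.9 of them without and 11.7 with Fos. No member of these lists passed in edgeR.

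The interaction of Fos status with genotype was tested in the same sums. Of 9389 genes 0 passed in edgeR (0.0%), 32 had an unadjusted p under 0.05 (0.341%), and DESeq2 called 15 (0.16%), 10 of them with a fold change that was higher, in the sense of more positive, in JAK2V617F (0.107%). The smallest p-values belonged to Uck1, Snora31, Nmb, Cep78 and Tti2, with a fold change more positive in JAK2V617F, and to Cyb5rl, Cdip1, Brcc3, Lcmt2 and Gsap, with one more positive in WT. Uck1, a kinase of pyrimidine salvage, shows their form, at 161.9, 112.5, 0 and 7.05 CPM without Fos and 0, 22.04, 3317 and 229 CPM with it (unadjusted p = 0.00326). After thinning, 1 gene was called, H2-K1, an MHC class I heavy chain (1.95 ± 0.33, edgeR adjusted p = 1.94e-05), outside the rule for named genes and picked after its value was seen. No member of the early or old-specific lists was called in edgeR.

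Fos-detected cells of 18 months were then set against those of 4 months. Of 11400 genes 0 passed (0.0%), with 489 at an unadjusted p under 0.05 (4.29%), 434 of them higher at 18 months (3.81%), and DESeq2 called 232 (2.04%), 219 higher (1.92%) and 13 lower. The young sums are those of the comparison above, so the results are not independent of it. The 18-month sums hold more cells, the median of all genes was 0.88 on the log2 scale and 71.8% were above 0, and fold changes are to be read against that. After thinning each cell to 30000 counts, 6 of 8792 genes were called (0.0682%), all higher at 18 months: Hes1 (6.13 ± 0.84, adjusted p = 4.03e-06), Fosb (4.34 ± 0.66, adjusted p = 4.36e-05), Atf3, Klf6, Zfp36 and Vldlr. Atf3 had no count in any young sum, and Hes1, Fosb and Vldlr were at 0 in the young Fos-detected sum of JAK2V617F pool A. The filter on low counts asked for as many sums above its cutoff as each age holds. These genes could pass it only with the 18-month sums, where they are high, so their calls are a description and no support. Of the 6 genes called, all but Vldlr are on the early lists, and the median of all genes was then 0.59.

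Hes1, which was not higher in young cells with Fos, stood at 516.5, 417, 710.5 and 328 CPM in the Fos-detected cells of 18-month WT pools A and B and JAK2V617F pools A and B, above all young values. Fosb was at 485, 476, 833 and 241 CPM, against at most 62.6 CPM in young cells. Klf6 had 604, 542, 835 and 818 CPM at 18 months and 140.4, 137.9, 31.4 and 194 CPM in young Fos-detected cells. Zfp36 had 1110, 1270, 1658 and 533 CPM at 18 months and 427, 210, 25.5 and 574 CPM in young Fos-detected cells. The ages thus overlapped for Zfp36, and JAK2V617F pool B was higher at 4 months.

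Atf3 was at 99.9, 94.8, 202 and 70.4 CPM at 18 months and at 0 in young cells with Fos, at least 994-fold higher when 3 counts over the young group are taken as the floor. Id3, an inhibitor of basic helix-loop-helix factors, was at 0 in young cells likewise and at least 425-fold higher, and Zg16 at least 695-fold. These 3 genes were tested only because they are high at 18 months, so their place among the smallest p-values is a description. Vldlr, a lipoprotein receptor, was also among the 5 higher genes with the smallest p and was 83.6-fold higher in the counts of all pools together (9677 counts at 18 months and 34 in young cells, per count on genes). Young Fos-detected cells of both JAK2V617F pools held 0 counts of it. It too passed the filter on low counts only with the 18-month sums, so its place is likewise a description.

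Fosl2, Sik1 and Nr4a1, higher with Fos in each young pool, were set beside their 18-month levels. The Fosl2 values of 283, 172.6, 9.33 and 242 CPM compare with 93.8, 158.6, 144.4 and 67.45 CPM at 18 months, those of Sik1 with 45.3, 11.98, 172.3 and 93.4 CPM, and those of Nr4a1 with 1063, 514, 779 and 284 CPM. The ranges of the ages overlapped for these 3 genes, although the young Fosl2 values lay above all 18-month values in 3 pools and below them in JAK2V617F pool A. Lower at 18 months, without passing, were H3f3b, Serpina3g, Ccnd2, Il22ra2 and Mocs1. H3f3b had 4119, 3598, 3724 and 2960 CPM at 18 months, below each young Fos-detected pool (-0.97 ± 0.27, unadjusted p = 0.00291, adjusted p = 0.629), and Ccnd2, a cyclin of G1, had 800, 673, 904 and 607 CPM against 1193, 1375, 2586 and 1186 CPM (-1.48 ± 0.49).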

How the data were processed

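Single LT-HSCs from 12 library pools were profiled, and the 4 pools of 4 months and the 4 of 18 months were analysed here. The authors mapped reads to the Ensembl 77 mouse genome (GRCm38) with ERCC spike-ins, using TopHat2 2.0.13 and Bowtie2 2.2.3 per the labels, and deposited raw counts per gene and well from HTSeq (version not given in the sources used here). Each file lists 41388 genes and 92 spike-ins. Its 5 rows of reads without a gene, a median of 32.5% in the young cells kept, were left out. No wells had been removed or values normalized. GENCODE M21 named 40340 genes. No 2 files were identical.

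Members and gene lists were chosen with earlier results of these data known. Cells with at least 2500 genes were split by Fos count (1 or more, or 0), and counts without Fos were summed per pool and status. The sums were tested in R 4.3.3 with edgeR 4.0.16 (TMM, filterByExpr, quasi-likelihood test, Benjamini-Hochberg adjusted p under 0.05). The pool was a block, because both sums of a pool share its libraries. The comparison of ages had genotype and pool (A or B) as covariates. SE is the log2 fold change divided by the square root of F. CPM is the count per 1000000 counts on genes of the sum. Thinning drew 30000 counts per cell without replacement. DESeq2 1.42.0 and limma 3.58.1 were alternatives, beside other size factors, no low-count filter, thinning, matching on genes detected, Fos at 10 or more counts, 1300 genes per cell and each pool left out. The genotypes alone, the ranges of Fos CPM and Fos at 10 or more counts without JAK2V617F pool A were added after seeing the data. The scripts were tested on simulated data. Named were the 10 genes of smallest p in each direction (5 in the interaction and the comparison of ages), all tested members of the lists of AP-1 and other early transcription factors, and Btg2, Zfp36, Dusp1, Ier2, Cdkn1a and Hes1; other members are given as examples of their list. Some of the genes this rule names are not reported here. Cyr61 and Ctgf of the early lists, and 2210403K04Rik and Cd97 of the old-specific list, were not found by name. Summed depth ranged from 838303 to 18572056 counts over the 8 young sums. Promoter windows came from RefSeq (GRCm38.p6); none was listed for Hes1 and Sik1.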

Additional observations from a re-analysis of the deposited data

Results flagged for a closer look

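Of 64 sets of 4 pools, 13 held a pool far from the others (Dixon's test, 95% level), where chance gives about 1 in 20. JAK2V617F pool A, with 2 cells of each status, stood apart in 7. In its Fos-detected cells Nr4a1 was at 2477 CPM, Btg2 at 3572 CPM, Uck1 at 3317 CPM and Ccnd2 at 2586 CPM, each high, and Sik1 was low at 8.49 CPM. Its Fos-negative cells averaged 5.0 genes of the old-specific list, below the other pools, and its difference in genes detected per cell after thinning was high at 322.5.

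WT pool B stood apart in 4 sets. Its Fos-negative cells were high in Fosl2 (96.8 CPM) and Klf4 (10.98 CPM), and its Fos-detected cells in Hes1 (42.9 CPM) and Bhlhe40 (22.2 CPM). In WT pool A the Fos-negative cells were high in Btg2 (184.4 CPM), and in JAK2V617F pool B the Fos-negative cells were the only ones with Fosb (0.66 CPM).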

How the results depend on the processing

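The test of Fos-detected against Fos-negative cells called 0 genes in edgeR under every alternative run, with 17 to 266 genes at an unadjusted p under 0.05, and DESeq2 called 35, among them 4 of the old-specific list. Without the replicate block of library pool, edgeR called 0 genes and 61 had an unadjusted p under 0.05. Leaving out a pool other than JAK2V617F pool A gave 23 to 57 genes at that p, and without JAK2V617F pool A there were more (1.71% of the genes tested, against 0.522%), 81 of them higher (0.751%) and the rest lower (0.964%). With Fos at 10 or more counts 13 higher and 94 lower genes had such a p, and 257 genes when JAK2V617F pool A was left out as well. The interaction called 15 genes in DESeq2, 1 without a filter on low counts (Uck1) and 1 after thinning (H2-K1). The comparison of ages called 232 in DESeq2 and 6 after thinning, and 0 with any pool left out. The genotype difference in the share of cells with Fos turned to -2.88 points after thinning, -1.55 with 10 or more counts and -2.68 with cells of at least 1300 genes. The mean difference in genes detected ranged from 188.2 to 301 and that in list genes from 5.46 to 8.73 with 1 pool left out.

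Of the log2 fold changes of named genes with Fos in young cells, 670 values kept their sign and their side of the threshold, 34 reversed and 14 were called, all by DESeq2. In the interaction 51 kept both and 8 were called, by DESeq2 or without a filter on low counts, and in the comparison of ages 9 were called, by DESeq2 or after thinning, and the others kept both. Batf turned to -1.01 with Fos at 10 or more counts, -0.47 with 1300 genes, -0.265 with matched cells, -0.18 without the block, -1.24 in the WT pools alone, -0.78 after thinning and -1.06 with 10 or more counts and no JAK2V617F pool A. Maff turned to -0.44 with 10 or more counts, -0.33 without the block, -0.35 in the JAK2V617F pools alone and -0.48 with 10 or more counts and no JAK2V617F pool A. Klf2 was -1.94 in the JAK2V617F pools alone, Klf6 -1.01 with 1300 genes and Cebpb -0.25 in the WT pools alone. Klf10 was 0.53 in the WT pools alone and 0.36 with 10 or more counts and no JAK2V617F pool A. Cebpd was -2.003 with 1300 genes and -0.10 in the WT pools alone. Id1 was 1.37 with 1300 genes, 0.86 with matched cells and 0.44 without the block. Id2 was -0.62 with 1300 genes, -0.76 without the block and -1.54 in the JAK2V617F pools alone. Srf was 0.38 with matched cells and 0.52 with 10 or more counts and no JAK2V617F pool A. With 1 pool left out, Batf ranged from -0.82 to 1.21, Maff from -0.48 to 0.41, Klf10 from -1.73 to 0.28, Hes1 from -1.97 to 0.69, Cebpd from -1.01 to 5.41, Id1 from -4.66 to 1.28 and Id2 from -1.36 to 3.21. The causes were not tested.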
